A study of Mus musculus with 12 samples.

Results

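The genes described are 39 enzymes of glycolysis, of pyruvate entry into the mitochondrion and of the pentose phosphate pathway in mouse CD4+ T cells. They were chosen by name, as listed enzymes of these pathways, and not by any measured value, and all 39 were found among the 23991 gene names in the files. Of the 39, 37 reached 1 FPKM in at least 3 libraries, the level required for testing. Hk3 and Pdk4 did not, and their levels are given without a test. FPKM, a fragment count per kilobase of transcript, is scaled for library size and transcript length, so levels can be compared between genes.

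Glycolysis splits glucose into pyruvate. Its upper stretch spends ATP to trap and divide the sugar, and its lower stretch recovers ATP and NADH. Lactate dehydrogenase turns pyruvate to lactate and restores NAD+, while the pyruvate carrier and the pyruvate dehydrogenase complex lead pyruvate into the mitochondrion. The pentose phosphate pathway branches off at glucose 6-phosphate and supplies NADPH and ribose. T cells are known to turn to lactate-producing glycolysis after activation, and HIF-1 and MYC are known regulators of many of these genes in that setting.

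Polyadenylated RNA was sequenced from CD4+ T cells of male C57BL/6 mice aged 8 to 10 weeks, either wild type (WT) or Adcy10-/-. Adcy10 encodes soluble adenylyl cyclase, which makes the second messenger cAMP. The cells came from spleen or lymph nodes, were enriched with magnetic beads by removing other cells, and were cultured for 18 h toward the Th17 fate, a helper T cell type that makes IL-17. The 12 libraries formed 4 groups of 3, WT and Adcy10-/- cells without or with polarizing cytokines added to the baseline medium. Per the labels, plates were coated with antibody to CD3 at 10 µg/mL, and antibody to CD28 was given at 2 µg/mL. The cytokines were IL-6 at 25 ng/mL and IL-1β and IL-23 at 20 ng/mL, and antibodies at 1 µg/mL blocked IL-4 and IFNγ. They do not say which of these additions baseline medium lacked. They also do not say whether the replicates came from separate animals or how the Adcy10 allele was made, so the p-values measure only the spread between these libraries.

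Sequences before the starts of 3 of the genes, picked by name, are shown as examples. Pgk1 and Ldha were higher with cytokines in the blocked fit described below (Pgk1 in WT, Ldha in both genotypes), and Eno3 fell. Each is the 250 bases before a RefSeq start in build GRCm38.p6, on the + strand, 5′ to 3′, at chrX:106186850-106187099 for Pgk1, chr7:46845554-46845803 for Ldha and chr11:70656926-70657175 for Eno3. The Ldha and Eno3 windows each lie within a longer RefSeq record of the gene. The Ldha window is that of its 2 listed starts with more matches. Capitals mark matches to ACGTG or GCGTG on either strand, the core letters of the hypoxia response element, and CACGTG is the E-box, which holds ACGTG on both strands.
Pgk1: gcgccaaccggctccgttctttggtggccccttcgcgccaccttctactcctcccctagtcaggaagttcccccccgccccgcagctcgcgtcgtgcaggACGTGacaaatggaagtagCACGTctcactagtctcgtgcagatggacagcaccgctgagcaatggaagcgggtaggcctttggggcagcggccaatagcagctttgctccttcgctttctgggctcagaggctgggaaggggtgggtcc
Ldha: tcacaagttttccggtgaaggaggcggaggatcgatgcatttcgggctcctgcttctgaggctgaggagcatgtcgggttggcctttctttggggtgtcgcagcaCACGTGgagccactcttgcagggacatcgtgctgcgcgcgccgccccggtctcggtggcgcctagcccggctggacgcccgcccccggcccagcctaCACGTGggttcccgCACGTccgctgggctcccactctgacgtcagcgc
Eno3: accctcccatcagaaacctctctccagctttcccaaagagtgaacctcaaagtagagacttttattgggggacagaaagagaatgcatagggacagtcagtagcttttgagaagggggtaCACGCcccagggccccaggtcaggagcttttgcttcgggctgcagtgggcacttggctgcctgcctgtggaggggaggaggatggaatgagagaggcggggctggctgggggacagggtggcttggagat
Counting an E-box once on each strand, the Pgk1 window held 2 matches, the Ldha window 5, with 2 E-boxes among them, and the Eno3 window 1. Over all 39 enzymes, which had 60 listed starts, 75% of the windows held ACGTG or GCGTG, against 38.6% of 32851 windows of the same length over all listed genes. The E-box was in 8.33% of the enzyme windows and in 6.02% of all windows. Among the 11 enzymes that passed the test upward in either genotype in the blocked fit, 13 of 18 windows (72.2%) held a core. Of these 11 enzymes, 9 had a core in a window, while Tpi1 and Eno2 had 0. Counted by gene, 35 of all 39 enzymes and 11226 of 27025 listed genes had a core in at least 1 window. A gene with more listed starts has more windows in which a core can occur. Among those that passed downward, 3 of 3 windows held a core. A match describes letters only, and neighbouring starts of a gene share sequence. Both cores hold the letters CG, and the windows compared were not matched for base composition or for expression. The part of base composition in the difference of 75% from 38.6% was not tested.

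Each library summed to between 547870 and 594750 FPKM. FPKM keeps no read depth, so errors rest on the spread between libraries alone. The targeted gene, Adcy10, had 0 FPKM in each of the 12 libraries and so did not check the genotype labels. Markers of CD4+ T cells (7 of 8 listed were in the files) summed to 1315 to 1735 FPKM. Summed markers of other cells were far lower: 8.43 to 14.7 FPKM for CD8 T cells, 1.88 to 42.8 for B cells, 15.1 to 102 for macrophages and monocytes, 0.652 to 60 for neutrophils and 0.809 to 193 for red cells. Libraries of the same replicate number resembled each other across groups. The first principal component (34.3% of the variance) followed the cytokines, and the second (22.6%) set the 4 libraries numbered 1 apart from the rest.

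The most abundant of the enzymes belonged to lower glycolysis and lactate formation. Ldha, the main lactate dehydrogenase subunit, averaged 1408 FPKM over the 12 libraries and ranked 78 among all genes. Pkm, pyruvate kinase, averaged 1172 FPKM, and Gapdh, which forms the first high-energy phosphate of lower glycolysis, averaged 1094 FPKM. Their ranges over libraries overlapped, at 1112 to 1648 FPKM for Ldha, 840 to 1441 for Pkm and 958 to 1243 for Gapdh. In all, 11 enzymes averaged at least 100 FPKM, 19 lay between 10 and 100, 6 between 1 and 10 and 3 under 1. The lowest were Pfkfb2 (0.956 FPKM), Hk3 (0.389) and Pdk4, which was listed at 0 in 11 of 12 libraries and at 0.0108 FPKM in 1 Adcy10-/- baseline library.

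**Figure D1:**
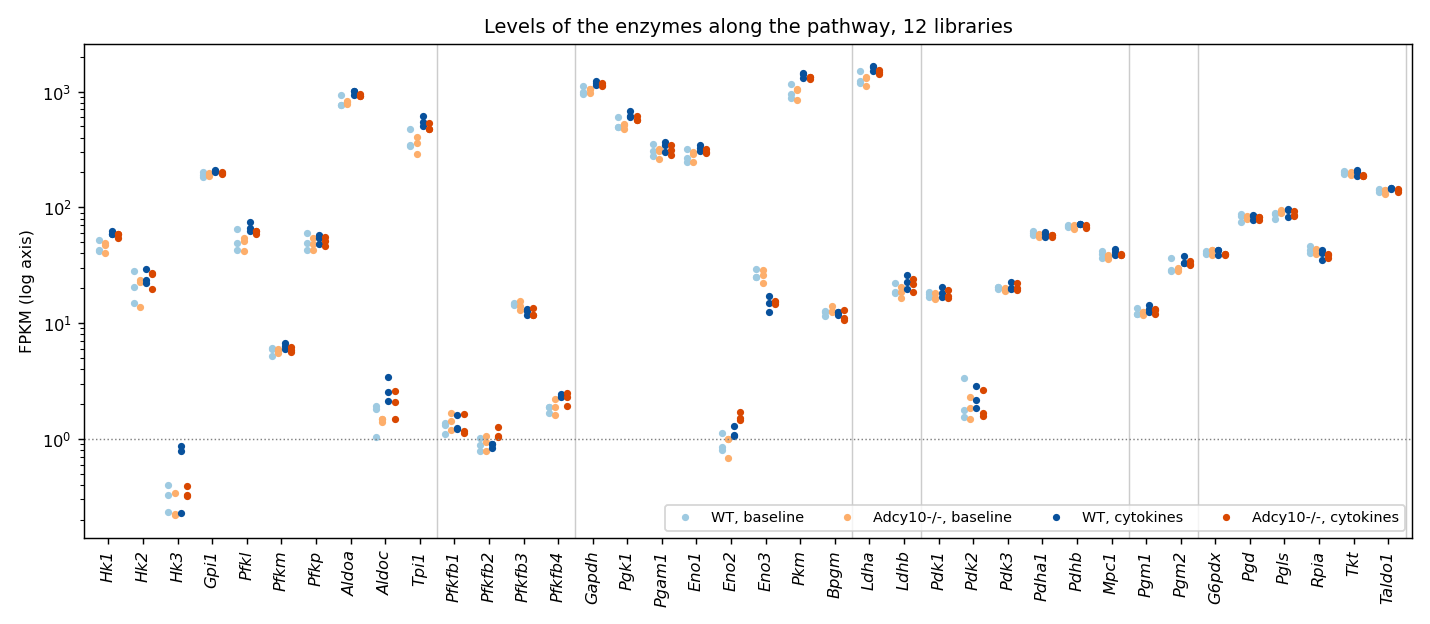
FPKM (log axis) of 38 enzymes in order along the pathway, with 1 point per library and colours for the 4 groups of 3. Pdk4, at 0 in nearly every library, is not drawn, and the dotted line marks 1 FPKM. Ldha, Pkm and Gapdh are the highest in every group, and Eno3 is the enzyme whose baseline points sit clearly above its cytokine points.

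Together the 39 enzymes made up 1.24% ± 0.138 (SD, n = 3) of all FPKM in WT cells in baseline medium and 1.45% ± 0.0801 in WT cells with cytokines. In Adcy10-/- cells the shares were 1.2% ± 0.102 and 1.41% ± 0.0486. The sum of the upper glycolytic enzymes went from 1580 ± 211 to 1963 ± 109 FPKM in WT and from 1522 ± 107 to 1824 ± 68.6 in Adcy10-/- cells. That of the pentose phosphate enzymes stood at 592 ± 13.1 and 600 ± 21.4 FPKM in WT and at 591 ± 10.7 and 574 ± 6.69 in Adcy10-/- cells. These sums are descriptions and were not tested. Because they come from bulk RNA, a change in the cells present and a change in RNA per cell cannot be told apart.

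With cytokines, few single enzymes passed the test, and the best supported change was a fall of Eno3, the muscle-type enolase, in both genotypes. Pkm rose in both genotypes, Hk1 in WT cells and Eno2 in Adcy10-/- cells. In WT, 2 of 37 enzymes were higher (percent called among all 10126 genes tested: 2.65) and 1 was lower (2.28). In Adcy10-/- cells, 2 were higher (2.14) and 1 was lower (2.12). Counts of 1 or 2 among 37 enzymes are close to the shares called among all genes. The median difference over the 37 enzymes was a log2 of 0.10 in WT, with 30 above 0, and 0.07 in Adcy10-/- cells, with 27 above 0. Over all genes the medians were -0.01 and -0.02, and 45.9% and 42.4% lay above 0. All differences are of log2(FPKM + 1), which understates the change of genes near 1 FPKM.

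Libraries with the same replicate number deviated from their group means together, and the fit with the number as a block gave more calls. In WT it called 10 of the 37 enzymes higher and 2 lower, where 7.41% and 7.43% of all genes were called. The counts in Adcy10-/- cells were 8 higher and 2 lower, where 4.74% and 5.98% of all genes were called. The 7 enzymes called higher in both genotypes were Hk1, Pfkl, Aldoa, Tpi1, Pkm, Ldha and Ldhb. A share of all genes called in both genotypes is not given here. Gapdh, Pgk1 and Eno1 were called in WT alone and Eno2 in Adcy10-/- cells alone, but no enzyme passed the test of a difference between the genotypes' responses. Pfkfb3 and Eno3 were called lower in both. Without a block, values of the 3 cytokine libraries lay all above those of the 3 baseline libraries for 10 enzymes in WT (all genes: 10.5%) and 11 in Adcy10-/- cells (all genes: 9.28%). They lay all below for 2 enzymes in WT (all genes: 10.3%) and 3 in Adcy10-/- cells (all genes: 12.3%).

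**Figure D2:**
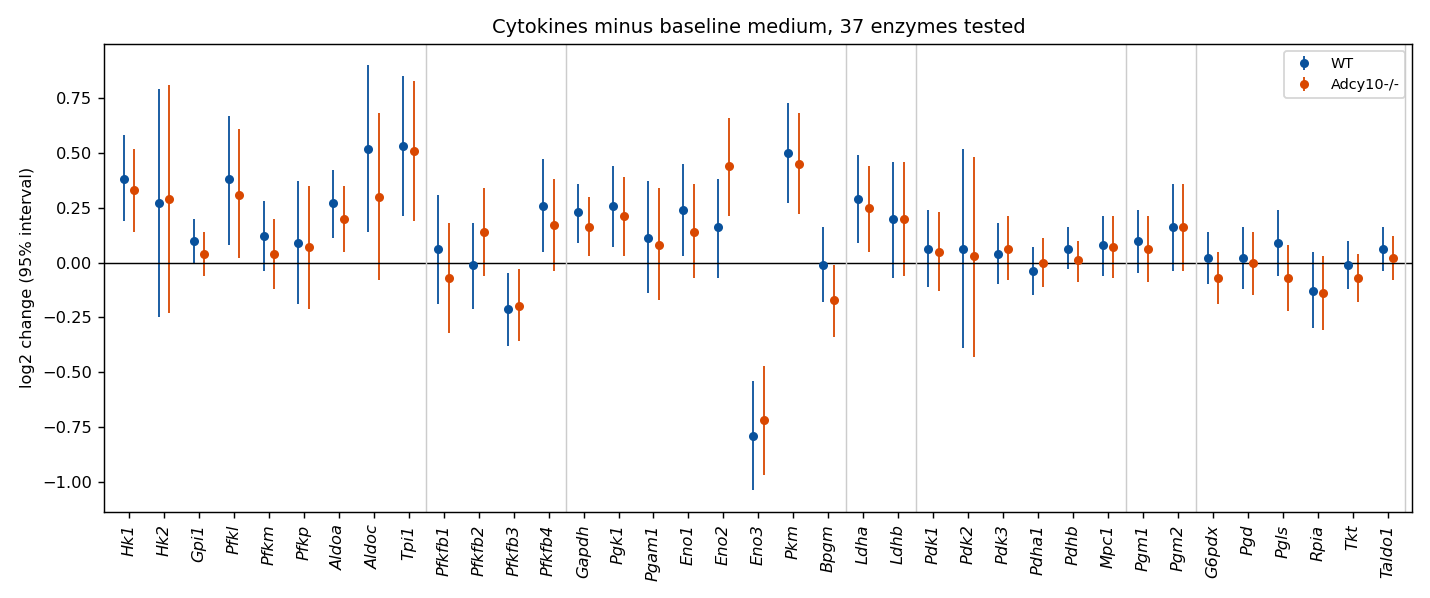
Difference in log2(FPKM + 1), cytokines minus baseline medium, for the 37 tested enzymes in WT and Adcy10-/- cells, from the fit without a block. Points are estimates from 3 against 3 libraries and bars are 95% intervals. Eno3 lies at -0.79 in WT and -0.72 in Adcy10-/- cells, while most upper and lower glycolytic enzymes lie above 0 and the pentose phosphate enzymes lie near 0.

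Of the 10 enzymes of upper glycolysis 9 were tested, and in the unblocked fit Hk1 alone passed, in WT. Hk1, the hexokinase that starts glycolysis in most cells, stood at 42.9, 42 and 52.1 FPKM in WT baseline libraries 1 to 3 and at 58.6, 58.3 and 61.9 with cytokines. Adcy10-/- cells had 40.6, 49.1 and 47.6 FPKM in baseline medium and 54.8, 58.7 and 59.2 with cytokines. The groups did not overlap in either genotype. Cytokines minus baseline gave a log2 difference of 0.38 in WT (SE 0.09, adjusted p = 0.0306; 0.00483 with the block) and 0.33 in Adcy10-/- cells (SE 0.09, adjusted p = 0.0629; 0.0105 with the block). The unblocked WT call was lost with no filter on low values (adjusted p = 0.0604) and in a fit of the compared groups alone (0.0718). It was also lost, at adjusted p up to 0.15, when WT baseline library 1 or 2 or any of the 3 WT cytokine libraries was left out.

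Hk2, the inducible hexokinase, spread widely within groups: 14.8, 20.5 and 28.1 FPKM in WT baseline cells and 22, 23.7 and 29.5 with cytokines. Its libraries numbered 1 were the lowest of their group in all 4 groups, and its log2 differences of 0.27 in WT (SE 0.24, adjusted p = 0.603) and 0.29 in Adcy10-/- cells (adjusted p = 0.675) did not pass. Hk1 made up 68.5% ± 4.75 of the hexokinase FPKM in WT baseline cells and 70% ± 2.52 with cytokines, and Hk2 nearly all the rest. Hk3 ranged from 0.219 to 0.862 FPKM, with its highest values in WT cytokine libraries 1 and 3. Gpi1, which converts glucose 6-phosphate to fructose 6-phosphate, lay between 183 and 210 FPKM, and its differences of 0.10 and 0.04 did not pass.

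Phosphofructokinase, the committed step, was carried almost equally by Pfkl and Pfkp at baseline. Pfkl, the liver-type subunit, stood at 43.2, 49.4 and 64.7 FPKM in WT baseline cells and at 62, 66.4 and 74.4 with cytokines, so that baseline library 3 overlapped the cytokine group. Levels in Adcy10-/- cells were 42.2, 54.5 and 51.3 FPKM and, with cytokines, 58.8, 62.9 and 62, with no overlap. On the log2 scale the difference was 0.38 in WT (SE 0.13, adjusted p = 0.143; 0.0188 with the block) and 0.31 in Adcy10-/- cells (adjusted p = 0.279; 0.0456 with the block). Pfkp, the platelet-type subunit, differed by 0.09 and 0.07 and passed in neither fit. As a share of phosphofructokinase FPKM, Pfkl was at 46.6% to 49.5% in the 6 baseline libraries and at 50.7% to 53.7% in the 6 cytokine libraries, and the ranges did not overlap. Pfkm, the muscle-type subunit, stayed between 4.6% and 6.69%.

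The PFKFB enzymes set the level of fructose 2,6-bisphosphate, the strongest known activator of phosphofructokinase. Pfkfb3, whose product favours synthesis of the activator, was the most abundant of the 4. It stood at 14.3, 14.6 and 14.9 FPKM in WT baseline cells and at 12.7, 11.7 and 13.2 with cytokines. The corresponding Adcy10-/- values were 14.2, 13.1 and 15.5 and, with cytokines, 11.7, 11.8 and 13.6, so that the groups were apart in WT and overlapped in Adcy10-/- cells. Its log2 difference was -0.21 in WT (SE 0.07, adjusted p = 0.139; 0.0202 with the block) and -0.20 in Adcy10-/- cells (SE 0.07, adjusted p = 0.212; 0.0331 with the block). Pfkfb3 was thus called lower in the blocked fits in which most called glycolytic enzymes were higher. Pfkfb4 was at 1.67, 1.9 and 1.87 FPKM in WT baseline cells and 2.32, 2.45 and 2.33 with cytokines, a log2 difference of 0.26 (adjusted p = 0.158; 0.0945 with the block). Pfkfb3 held 78.6% ± 0.505 of PFKFB FPKM in WT baseline cells and 73.1% ± 0.982 with cytokines, and Pfkfb4 9.75% ± 0.48 and 13.9% ± 1.11. Pfkfb1 (1.1 to 1.66 FPKM) and Pfkfb2 (0.783 to 1.27 FPKM) passed in neither genotype.

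**Figure D3:**
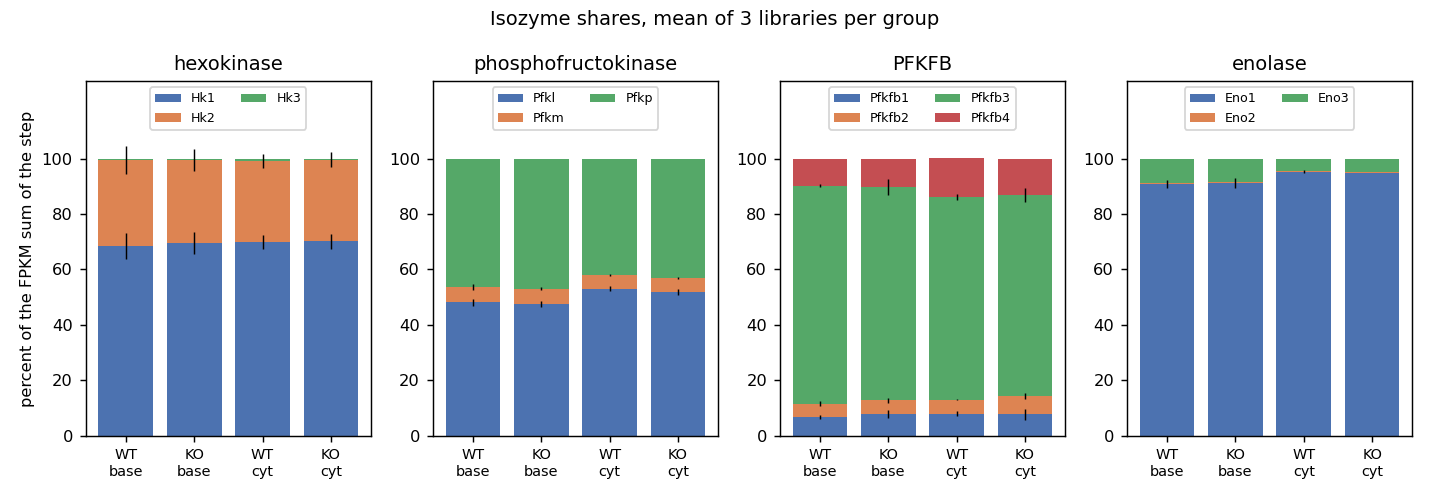
Share of each isozyme in the FPKM sum of its step (percent, bars from 0), as the mean of 3 libraries per group. Black lines are 1 SD of the share of the segment they top, drawn only for shares over 3% and not for the top segment of a bar. Between baseline and cytokine groups the Pfkl share of phosphofructokinase goes from 48.1% to 53.1% in WT, and the Eno3 share of enolase from 8.79% to 4.38%.

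Aldolase, which splits the sugar, was nearly all Aldoa, at 99.7% to 99.9% of the aldolase FPKM in every library. Aldoa stood at 771, 771 and 930 FPKM in WT baseline cells and at 943, 1007 and 1013 with cytokines. The Adcy10-/- libraries were at 776, 816 and 829 and, with cytokines, 914, 954 and 912 FPKM, with no overlap in either genotype. The log2 difference was 0.27 in WT (SE 0.07, adjusted p = 0.0515; 0.0125 with the block) and 0.20 in Adcy10-/- cells (SE 0.07, adjusted p = 0.156; 0.047 with the block). Aldoc, the brain-type aldolase, had an estimate in WT of 0.52 (SE 0.17, adjusted p = 0.117; 0.0806 with the block) but lay between only 1.03 and 3.43 FPKM.

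Tpi1, triosephosphate isomerase, which interconverts the triose phosphates, stood at 346, 337 and 479 FPKM in WT baseline cells and at 506, 549 and 609 with cytokines. Adcy10-/- cells had 289, 404 and 361 FPKM and, with cytokines, 472, 540 and 479. Every cytokine library exceeded every baseline library of its genotype, and WT baseline library 3 was the highest of the 6 baseline libraries. Cytokines minus baseline gave a log2 difference of 0.53 in WT (SE 0.14, adjusted p = 0.06; 0.0133 with the block) and 0.51 in Adcy10-/- cells (SE 0.14, adjusted p = 0.0793; 0.018 with the block). The Tpi1 record overlaps Spsb2, which was at 0.665 to 2.15 FPKM and so far below Tpi1.

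Lower glycolysis held 2 of the 3 unblocked calls in WT and all 3 in Adcy10-/- cells. Gapdh stood at 996, 958 and 1107 FPKM in WT baseline cells and at 1138, 1194 and 1243 with cytokines. Levels in Adcy10-/- cells were 971, 1050 and 1042 and, with cytokines, 1131, 1186 and 1109 FPKM. The groups were apart in both, with log2 differences of 0.23 (SE 0.06, adjusted p = 0.0587; 0.0177 with the block) and 0.16 (SE 0.06, adjusted p = 0.204; 0.0753 with the block). Gapdh is a common reference gene for other assays, and in the blocked fit it rose in WT.

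Pgk1, phosphoglycerate kinase, which makes ATP and whose upstream window held 2 cores, was at 496, 493 and 608 FPKM in WT baseline cells and at 598, 621 and 683 with cytokines. The corresponding Adcy10-/- values were 471, 522 and 513 and, with cytokines, 563, 612 and 567 FPKM. WT baseline library 3 overlapped the WT cytokine group, and the Adcy10-/- groups were apart. On the log2 scale the difference was 0.26 in WT (adjusted p = 0.111; 0.0263 with the block) and 0.21 in Adcy10-/- cells (adjusted p = 0.239; 0.0679 with the block). Pgam1, phosphoglycerate mutase, ranged from 259 to 370 FPKM, and its differences of 0.11 and 0.08 passed in neither genotype. Bpgm, which makes 2,3-bisphosphoglycerate, ranged from 10.7 to 14.2 FPKM, with differences of -0.01 in WT and -0.17 in Adcy10-/- cells (adjusted p = 0.302).

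At the enolase step Eno3 fell in both genotypes, while Eno2 rose in Adcy10-/- cells. Eno3 stood at 25.1, 29.3 and 25 FPKM in WT baseline cells and at 12.6, 17.3 and 15 with cytokines. The Adcy10-/- libraries were at 28.8, 22.3 and 26 FPKM and, with cytokines, 15.2, 14.6 and 15.5. All 6 cytokine libraries lay below all 6 baseline libraries. The log2 difference was -0.79 in WT (SE 0.11, adjusted p = 0.00314) and -0.72 in Adcy10-/- cells (SE 0.11, adjusted p = 0.00487), a ratio of mean FPKM of 0.566 and 0.588. The call passed in all 12 fits that left out 1 library, with adjusted p up to 0.0209 in WT and 0.0241 in Adcy10-/- cells. The Eno3 record overlaps Pfn1, whose far higher level averaged 1988 FPKM in WT baseline cells and 1978 with cytokines (log2 difference -0.01, adjusted p = 0.972), and 2099 and 1892 in Adcy10-/- cells (-0.15, adjusted p = 0.338). Whether counting used strand is not given in the sources used here, and the part of Pfn1 reads in the Eno3 values was not tested.

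Eno1, the enolase of most tissues, was at 244, 268 and 318 FPKM in WT baseline cells and at 304, 325 and 348 with cytokines, with overlap. Its log2 difference was 0.24 in WT (SE 0.10, adjusted p = 0.207; 0.0229 with the block) and 0.14 in Adcy10-/- cells (adjusted p = 0.598; 0.167 with the block). Eno2, the neuronal-type enolase, was near 1 FPKM, at 0.683, 1 and 1 FPKM in Adcy10-/- baseline cells and at 1.53, 1.46 and 1.7 with cytokines. In WT it was at 1.13, 0.851 and 0.802 FPKM and at 1.3, 1.09 and 1.06, so that the groups were apart in Adcy10-/- cells and overlapped in WT. Cytokines minus baseline gave a log2 difference of 0.44 in Adcy10-/- cells (SE 0.10, adjusted p = 0.0346; 0.0252 with the block) and 0.16 in WT (adjusted p = 0.449). The unblocked Eno2 call was lost without WT baseline library 2 or any 1 of the 6 Adcy10-/- libraries, with adjusted p up to 0.146, and also with the compared groups alone (0.0682). With a smaller pseudocount the Eno2 difference was larger, at 0.75 for 0.1 (adjusted p = 0.0495) and 0.81 for 0.01 (adjusted p = 0.0517, no longer called). Eno1 supplied 90.9% ± 1.4 of enolase FPKM in WT baseline cells and 95.3% ± 0.563 with cytokines, and Eno3 supplied 8.79% ± 1.34 and 4.38% ± 0.588. In Adcy10-/- cells the Eno3 share was 8.52% ± 1.79 and 4.68% ± 0.152.

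Pkm, the pyruvate kinase of T cells and most other cells, catalyses the last step of glycolysis. It stood at 872, 949 and 1164 FPKM in WT baseline cells and at 1315, 1441 and 1429 with cytokines. Adcy10-/- cells had 840, 1059 and 1025 FPKM and, with cytokines, 1294, 1337 and 1337. All 6 cytokine libraries exceeded all 6 baseline libraries. Pkm rose by a log2 of 0.50 in WT (SE 0.11, adjusted p = 0.0211; 0.00234 with the block) and 0.45 in Adcy10-/- cells (SE 0.11, adjusted p = 0.0346; 0.00388 with the block). Without a filter the adjusted p was 0.0562 in WT and 0.0875 in Adcy10-/- cells, under quantile normalization 0.0713 and 0.0571, and with the compared groups alone 0.0538 in WT. The unblocked WT call was lost without WT baseline library 1 or 2 or WT cytokine library 2 or 3 (adjusted p up to 0.101). That in Adcy10-/- cells was lost without Adcy10-/- baseline library 1 or 3, any Adcy10-/- cytokine library, WT baseline library 2 or WT cytokine library 2 or 3 (adjusted p up to 0.132). FPKM per gene does not separate the PKM1 and PKM2 splice forms.

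**Figure D4:**
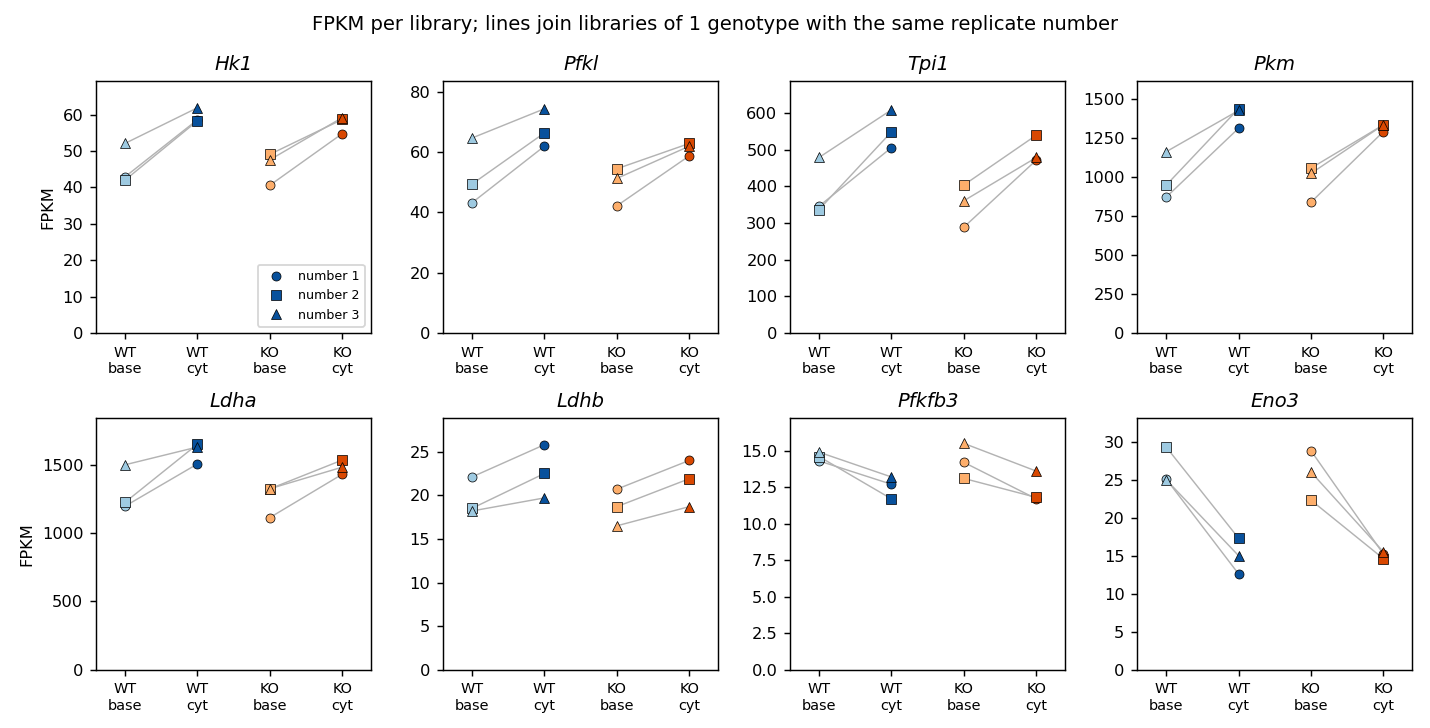
FPKM of 8 enzymes in each of the 12 libraries (axes from 0), with grey lines joining libraries of 1 genotype that share a replicate number and marker shapes for the numbers (KO is Adcy10-/-). For Hk1, Pfkl, Tpi1, Pkm, Ldha and Ldhb every line goes up, and for Pfkfb3 and Eno3 every line goes down.

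Lactate dehydrogenase was 98.2% to 98.8% Ldha in every library, with Ldhb, the subunit of tissues that consume lactate, as the rest. Ldha was at 1195, 1223 and 1498 FPKM in WT baseline cells and at 1504, 1648 and 1628 with cytokines. Levels in Adcy10-/- cells were 1112, 1322 and 1323 FPKM and, with cytokines, 1429, 1533 and 1481. The groups were apart in both genotypes, in WT by a small margin between baseline library 3 and cytokine library 1. On the log2 scale the difference was 0.29 in WT (SE 0.09, adjusted p = 0.0943; 0.014 with the block) and 0.25 in Adcy10-/- cells (SE 0.09, adjusted p = 0.194; 0.0341 with the block).

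Ldhb was at 22.1, 18.5 and 18.2 FPKM in WT baseline cells and at 25.8, 22.5 and 19.7 with cytokines, with overlap. The corresponding Adcy10-/- values were 20.7, 18.7 and 16.5 and, with cytokines, 24, 21.9 and 18.7 FPKM. Library 1 was the highest in all 4 groups, and each library exceeded its baseline partner of the same number. The log2 difference was 0.20 in both genotypes, with adjusted p of 0.421 in WT and 0.519 in Adcy10-/- cells without the block and of 0.0161 and 0.0176 with it. Number 1 was the lowest library in 4 of 4 groups for 10 of the 37 enzymes (Hk2, Pfkl, Pfkp, Pgam1, Eno1, Pkm, Ldha, Pdk3, Pgd and Rpia) and the highest for Ldhb and Pdk2. The share of all genes with this order was not counted, and the libraries numbered 1 stood apart over all genes as well.

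Enzymes of pyruvate entry did not pass in any comparison, with or without a block. Pdk1, Pdk2 and Pdk3, kinases that switch off pyruvate dehydrogenase, lay at 16.1 to 20.4, 1.49 to 3.34 and 19 to 22.5 FPKM. Pdha1 and Pdhb, the subunits of the decarboxylating enzyme of that complex, lay at 55 to 62 and 65.3 to 72.3 FPKM. Mpc1, a subunit of the mitochondrial pyruvate carrier, lay at 35.5 to 43.7 FPKM. The largest cytokine estimate upward was 0.08 for Mpc1 in WT (95% interval -0.06 to 0.21) and the largest downward -0.04 for Pdha1 in WT (-0.15 to 0.07). Over the 6 tested, none had an unadjusted p under 0.05 for a cytokine effect. All 6 intervals of log2(FPKM + 1) lay within 1.5-fold in both genotypes. So did those of 8869 of all 10126 genes in WT and of 8949 in Adcy10-/- cells. For Pdk2, at 1.49 to 3.34 FPKM, the interval in FPKM itself is wider.

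The 6 pentose phosphate enzymes likewise gave 0 calls for cytokines, and 0 had an unadjusted p under 0.05 without a block. G6pdx, which opens the pathway and makes NADPH, was at 39.7, 40.4 and 41.6 FPKM in WT baseline cells and at 38.4, 42.8 and 42.4 with cytokines. The Adcy10-/- libraries were at 42.6, 38.9 and 43.1 and, with cytokines, 39.8, 38.7 and 39.9 FPKM, and the groups overlapped in both genotypes. Tkt, transketolase, was the most abundant at 186 to 210 FPKM, followed by Taldo1, transaldolase, at 131 to 148 FPKM. Pgls, the lactonase, lay at 78.9 to 95.9 FPKM, and Pgd, the NADPH-forming enzyme after it, at 74.1 to 87.8 FPKM. Rpia, ribose 5-phosphate isomerase, had the largest estimates of the branch, both downward: -0.13 in WT (95% interval -0.30 to 0.05, adjusted p = 0.433; 0.0637 with the block) and -0.14 in Adcy10-/- cells (-0.31 to 0.03, adjusted p = 0.482; 0.0569 with the block). The largest upward was 0.09 for Pgls in WT (-0.06 to 0.24). All 6 intervals of log2(FPKM + 1) lay within 1.5-fold in each genotype. Among all 10126 genes, 8869 in WT and 8949 in Adcy10-/- cells had such intervals.

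Pgm1 and Pgm2, phosphoglucomutases that link glucose 6-phosphate to glycogen and sugar nucleotides, lay at 11.7 to 14.4 and 28.1 to 37.9 FPKM. The names Pgm1 and Pgm2 are listed in RefSeq as synonyms of each other's genes, so which enzyme each entry holds cannot be settled here. The log2 difference of Pgm2 was 0.16 in both genotypes (adjusted p = 0.398 in WT and 0.495 in Adcy10-/- cells), and neither gene passed with the replicate number as a block across genotypes.

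Between genotypes, 0 of the 37 enzymes passed in either medium (percent called among all genes: 0), and 0 passed for the interaction, which asks whether the cytokine effect differed between genotypes (percent called: 0). Unadjusted p-values were under 0.05 for 0 enzymes in baseline medium, 1 with cytokines (Eno2) and 0 for the interaction, against 118, 202 and 112 of all 10126 genes. With the block, too, 0 enzymes passed, with 1 unadjusted p under 0.05 in each of the 3 comparisons, against 375, 515 and 335 of all genes. The 95% interval of the difference in log2(FPKM + 1) lay within 1.5-fold for 35 of 37 enzymes in each medium and for 33 for the interaction. Of all 10126 genes it did so for 9616 in baseline medium, 9585 with cytokines and 8858 for the interaction. For genes near 1 FPKM, such as Eno2, the interval in FPKM itself is wider. With cytokines Eno2 differed by 0.25 between Adcy10-/- and WT cells (95% interval 0.03 to 0.48, adjusted p = 1), and its interaction was 0.28 (-0.04 to 0.60).

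Small differences leaned to the lower side in Adcy10-/- cells with cytokines. There 34 of 37 enzymes were below 0, with a median log2 of -0.07, against 57% of all genes and a median of -0.01. The exceptions were Eno2, Pfkfb2 and Eno3. The count was 34 under median-ratio scaling (median -0.05) and 31 under quantile normalization (median -0.03), and it went down to 28 without WT cytokine library 3 (median -0.04). Myeloid markers lay lower in the same comparison. Summed macrophage and monocyte markers were at 21.2 to 27.9 FPKM in Adcy10-/- cells and at 28.9 to 102 in WT, with no overlap, and summed neutrophil markers at 0.652 to 15.5 and at 11.4 to 60. Lyz2 differed by -1.13 (unadjusted p = 0.0404, adjusted p = 1), S100a8 by -1.17 and S100a9 by -1.56, both with an adjusted p of 1. These markers also lay lower in baseline medium, at -0.92, -0.76 and -0.77 (unadjusted p = 0.0863, 0.389 and 0.399). The part of such cells in the enzyme differences was not tested. In baseline medium 27 of 37 were below 0, with a median of -0.03, but without WT baseline library 3, which was high for many of the enzymes, 12 were below 0 and the median was 0.03. The enzymes of a library share its scaling and move together, so these counts are not independent observations. Values of the Adcy10-/- libraries were all above those of WT with cytokines for Pfkfb2 and Eno2 (all genes: 1.68%) and all below for Pdhb and Taldo1 (all genes: 3.4%). In baseline medium 0 enzymes were apart in either direction (all genes: 2.57% above and 2.42% below).

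**Figure D5:**
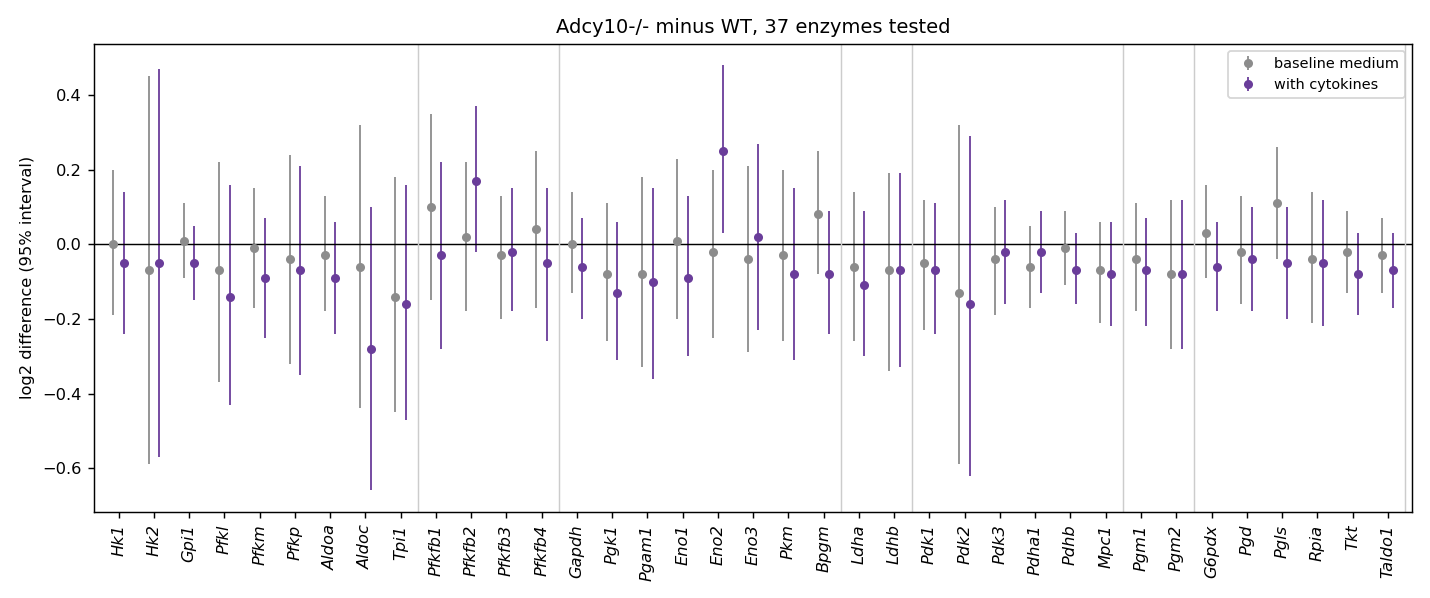
Difference in log2(FPKM + 1), Adcy10-/- minus WT, for the 37 tested enzymes in baseline medium and with cytokines. Points are estimates from 3 against 3 libraries and bars are 95% intervals. With cytokines 34 of the 37 points lie below 0, each with an interval that reaches across 0, and Eno2 lies at 0.25.

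Other genes of glucose use were counted by list. Of 8 glucose and lactate transporter genes 7 were tested. Slc16a3, which encodes the lactate exporter MCT4, was at 14.4, 14 and 21.3 FPKM in WT baseline cells and 27.9, 26.5 and 31.7 with cytokines, and at 12.4, 17.1 and 14.7 and then 24, 30.3 and 26.7 FPKM in Adcy10-/- cells. All cytokine libraries exceeded all baseline libraries, and it rose by 0.77 in WT (adjusted p = 0.0162) and 0.83 in Adcy10-/- cells (adjusted p = 0.0121), more than any of the 37 enzymes. Bsg, the chaperone of that exporter, rose in WT (0.26, adjusted p = 0.0236). In Adcy10-/- cells Bsg was at 185, 191 and 198 FPKM and, with cytokines, 200, 228 and 209. Those groups were also apart, but Bsg was not called there without the block. No gene of this list passed for the interaction. With the block Slc2a1, the glucose transporter GLUT1, was called higher in both genotypes (0.36, adjusted p = 0.0116, and 0.32, adjusted p = 0.0216), Slc16a1 lower in WT (-0.25, adjusted p = 0.0146) and Slc2a3 lower in Adcy10-/- cells (-0.27, adjusted p = 0.0242).

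Among 10 regulators, 9 tested, Hif1a rose in Adcy10-/- cells by 0.70 (adjusted p = 0.0352; 0.00979 with the block) and differed by 0.62 in WT (adjusted p = 0.0559; 0.015 with the block). Hif1a encodes the oxygen-regulated subunit of HIF-1, and it stood at 67.7 to 114 FPKM in the 6 baseline and 119 to 165 in the 6 cytokine libraries. Myc was at 224 to 246 FPKM in baseline and 214 to 237 in cytokine libraries and was not called. With the block Prkaa1, an AMPK catalytic subunit, was called lower in WT (-0.19, adjusted p = 0.0436).

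The remaining lists gave 0 calls without a block. With it, where 7.41% of all genes were called higher and 7.43% lower in WT and 4.74% and 5.98% in Adcy10-/- cells, 1 gene each was called in the other pyruvate entry genes (Pdp1, -0.24 in WT, adjusted p = 0.0402; 7 of 7 tested), gluconeogenesis (G6pc3, -0.29 in Adcy10-/- cells, adjusted p = 0.0226; 2 of 6 tested) and glycogen (Pygb, 0.22 in WT, adjusted p = 0.0299; 4 of 7 tested). Neither the other isozymes (5 of 15 tested, smallest p for Ldhd) nor the other pentose phosphate genes (6 of 8 tested, smallest p for Prps2) gave a call. Fbp1, G6pc and Pck1 of gluconeogenesis, Tktl1 and Tktl2 of the pentose branch and the testis isozyme Pgk2 were listed at 0 in every library. Of all these lists 0 genes passed between genotypes. The difference largest relative to its error there was that of Mpc2, the partner of Mpc1, at -0.18 in baseline medium (95% interval -0.32 to -0.05) and -0.21 with cytokines (-0.35 to -0.07), with an adjusted p of 1 in both.

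Markers of other cells were examined beside the cytokine effects. Summed neutrophil markers (3 of 4 listed were in the files) ranged from 5.01 to 19.3 FPKM in WT baseline cells and from 11.4 to 60 with cytokines, and from 1.16 to 5.43 and from 0.652 to 15.5 in Adcy10-/- cells. Summed macrophage and monocyte markers ranged from 20 to 65.4 and from 28.9 to 102 FPKM in WT and from 15.1 to 20.1 and from 21.2 to 27.9 in Adcy10-/- cells. Of 15 tested markers of cells other than CD4 T cells, 0 were called in either cytokine effect without a block or with the block over all libraries. With the replicate number as a separate block within each genotype, 4 were called higher in WT (all genes: 8.05%): Lyz2 of macrophages and monocytes (0.68, adjusted p = 0.000244), S100a8 and S100a9 of neutrophils (1.37 and 1.39, adjusted p = 0.00366 and 0.00971) and Cd79b of B cells (0.36, adjusted p = 0.00982). That fit called 3 of them higher in Adcy10-/- cells (all genes: 5.41%), at 0.46 for Lyz2 (adjusted p = 0.00157), 0.96 for S100a8 (0.0174) and 0.25 for Cd79b (0.0439), and 2 lower (all genes: 6.37%), at -0.53 for Cd79a of B cells (0.016) and -1.17 for Hba-a1 of red cells (0.0155). The part of such cells in the enzyme values was not tested. Of the CD4 T cell markers, Cd5 rose in both genotypes (0.39 and 0.34, adjusted p = 0.0142 and 0.0298). Cd4 fell in Adcy10-/- cells (-0.40, adjusted p = 0.0261) and differed by -0.30 in WT (adjusted p = 0.0804; 0.0128 with the block).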

How the data were processed

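The authors deposited 1 file per library with FPKM per gene. The submitters' processing notes name the genome build mm9 and the tools STAR 2.4.0f1, SAMtools 0.1.19, Cufflinks and HTSeq, with no role for each. How reads with several matches were treated is not given in the sources used here, which matters for enzymes with near-identical pseudogenes such as Gapdh, Aldoa, Pgam1, Eno1 and Ldha. Each file held 24488 entries for 23991 names, and entries of the 258 repeated names were summed. Each of the 39 enzymes had a single entry.

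Values were analysed as log2(FPKM + 1). Genes reaching 1 FPKM in 3 or more libraries (10126) were fitted in limma 3.58.1 (R 4.3.3) as 4 group means, with a variance trend and Benjamini-Hochberg adjustment over all genes at a threshold of 0.05. Tables and figures were made in Python 3.11.15. The unblocked fit of the WT cytokine effect was run on simulated data with independent errors. That run held no replicate effect and did not cover the blocked fits. The comparisons were cytokines against baseline in each genotype, Adcy10-/- against WT in each medium, and the interaction.

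Whether replicate numbers pair libraries was checked on residuals. Those of same-numbered libraries correlated at 0.294 to 0.536 for the WT cytokine effect, 0.401 to 0.532 for that in Adcy10-/- cells and 0.262 to 0.422 for genotype with cytokines, so the blocked value is given beside those results where it changes a call. At baseline 1 pair between genotypes lay at 0.074.

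The enzymes and gene lists came from general knowledge, with earlier results of these data known. Enzymes that passed in any comparison, the largest change each way in each stretch, and up to 4 passing genes of each other list (or that with the smallest p) were named. Trac and Ly6g were not matched, and Tigar was matched as 9630033F20Rik. Alternatives were other pseudocounts, filters, scalings and blocks, the largest entry per gene, the compared groups alone and each library left out. Leaving out all libraries numbered 1 was added after seeing the data. Promoter windows are from RefSeq.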

Additional observations from a re-analysis of the deposited data

How the results depend on the processing

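Counts of enzymes called higher with cytokines moved with the processing, while no called value changed sign. The share of all genes called follows each count in parentheses. In WT the count of 2 (2.65%) became 0 with no filter (1.3%), 5 with median-ratio scaling (2.8%), 10 with the replicate block (7.41%), 12 with the replicate block within genotype (8.05%), 1 without the libraries numbered 1 (2.23%) and 0 in a fit of only the groups compared (1.65%). Leaving out 1 library gave 0 to 8 (0.861% to 2.99%). In Adcy10-/- cells the count of 2 (2.14%) became 1 with a pseudocount of 0.01 (2.08%), 1 with no filter (0.992%), 1 with the stricter filter (2.26%), 8 with the replicate block (4.74%), 10 with the block within genotype (5.41%), 0 without the libraries numbered 1 (1.08%) and 1 with only the groups compared (1.78%), and 0 to 5 without 1 library (1.03% to 2.31%). The count of 1 called lower became 2 in each genotype with the replicate block (7.43% in WT, 5.98% in Adcy10-/- cells) and with the block within genotype (7.5%, 6.37%). The fits with fewer libraries have fewer samples, and the fit with no filter tests more genes (16728). For the other settings the cause was not tested. The counts for genotype and the interaction were 0 under every setting run. The block within genotype added Aldoc and Pgm2 in WT and Gapdh and Pgk1 in Adcy10-/- cells. The blocked fits were not repeated with single libraries left out. Depth is unknown, so what it limits cannot be given.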
